A study of Homo sapiens with 12 samples.

Results

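The genes described here are 10 classical readouts of epithelial-mesenchymal transition (EMT): the transcription factors SNAI1, SNAI2, ZEB1, ZEB2, TWIST1, TWIST2 and FOXC2, the cadherins CDH1 and CDH2, and the intermediate filament gene VIM. Their members were taken as every probe set whose only gene symbol in the platform annotation was one of these genes. Several short probes make up a probe set, and their signals are summed up as 1 value. This gave 22 of the 54613 probe sets tested, with 5 for ZEB2, 4 for ZEB1, 2 each for TWIST2, FOXC2, CDH1, CDH2 and VIM, and 1 each for SNAI1, SNAI2 and TWIST1. Total RNA of MCF-10A, an established human mammary epithelial cell line that does not form tumours, was hybridised to Affymetrix arrays. All 12 samples were harvested 48 h after infection with a retrovirus. There were 4 groups of 3 arrays, which carried NICD, Notch1 L1601P+ΔP, wild-type full-length Notch1 or the vector control. NICD stands for the part of Notch1 that is freed inside the cell on activation, and the sample descriptions add gfp to its name without saying what that stands for or whether the vector control is matched to it. L1601P is a substitution in the heterodimerization domain, and ΔP stands for the loss of the PEST region, a degradation signal at the receptor's end. Replicates are called biological in the labels, which say no more about separate cultures or infections, so the p-values rest on the spread among these arrays, which may be technical. They give neither the promoter that drives the transgenes nor the share of cells infected.

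In EMT, epithelial cells loosen their contacts and take on properties of migrating mesenchymal cells. SNAIL, ZEB and TWIST proteins are transcription factors that bind E-box sequences, and SNAIL and ZEB proteins are known to repress CDH1, which encodes E-cadherin, the adhesion molecule of epithelial junctions. A full EMT is usually recognised by the loss of E-cadherin together with a gain of N-cadherin, encoded by CDH2, and of vimentin. SNAI2, also called SLUG, is in addition a factor of normal basal and progenitor cells of the mammary gland and is known as a target of Notch signalling. MCF-10A is a basal-like line that already expresses vimentin in culture.

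The samples were checked before the members were compared. Of the 2 NOTCH1 probe sets, one stood at 8.79 ± 0.04 with NICD, 8.74 ± 0.02 with Notch1 L1601P+ΔP, 9.16 ± 0.04 with full-length Notch1 and 6.54 ± 0.20 with vector (log2 signal, mean ± SD, n = 3 arrays per group, here and below). The other differed by 0.28, 0.06 and 0.08 from vector in the same order. Where in the transcript either one binds was not analysed here. Among 8 basal mammary markers with a probe set of 1 symbol, all were above 7 on every array, and their mean level ran from 11.30 to 11.42 with NICD and from 11.79 to 11.87 with vector. With NICD 2 of the 8 were higher, KRT5 and KRT14, and 4 lower: ITGB4 fell by 1.97 on the log2 scale, LAMB3 fell by 1.44, ITGA6 fell by 1.07 and EGFR fell by 0.72. Of 14 fibroblast, endothelial and blood cell markers, 3 were higher with NICD and 0 lower by limma, namely CD14, KDR (by 1.05) and DCN. Their mean level ran from 6.31 to 6.36 with NICD and from 5.98 to 6.05 with vector. These counts stand against 8.46% higher and 15.8% lower among all genes. Of the 14, 4 were above 7 on every array. LUM stood at 3.28 with NICD and 3.17 with vector, CDH5 at 3.56 and 3.60, and PTPRC at 3.63 in both, and the lowest value on any array was 2.27. The bright ones were DCN, at 11.21 with NICD and 10.85 with vector, CD14, at 11.34 and 8.75, FAP, at 8.25 and 8.19, and COL1A1, at 7.85 and 7.70. The part of these markers in the results below was not tested. Precision is limited by the 3 arrays per group.

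With NICD, 9 of the 22 probe sets were higher and 3 lower than with vector, and with Notch1 L1601P+ΔP 2 were higher and 0 lower. Calls here are limma results with an adjusted p (Benjamini-Hochberg, all 54613 probe sets) below 0.05. The 9 higher probe sets belonged to SNAI1, SNAI2, ZEB1, ZEB2, TWIST2 and FOXC2, and the 3 lower ones to TWIST1 and CDH2. The 3 lower calls were 1 after cyclic loess and without NICD replicate 3 or vector replicate 2 or 3. No probe set of CDH1 or VIM was called. The background in NICD against vector was 19.3% of all probe sets, 6.75% higher and 12.6% lower. That balance depended on the scaling, since 3688 of 10565 called probe sets were higher, and 4898 of 9972 after cyclic loess. For Notch1 L1601P+ΔP against vector the background was 2.39%, with 1.1% higher and 1.29% lower. With full-length Notch1 0 of the 22 were called by limma, against 0.00732% higher and 0.00366% lower, 0.011% in all. At an unadjusted p under 0.05 the count was 1, the dimmer TWIST2 probe set, which was lower. The arrays of the groups compared did not overlap for 14 of the 22 probe sets with NICD, 6 with Notch1 L1601P+ΔP and 0 with full-length Notch1, against 33%, 24% and 10.6% of all probe sets. The median difference of the 22 probe sets was 0.165 with NICD, 0.028 with Notch1 L1601P+ΔP and -0.013 with full-length Notch1, against -0.019, -0.012 and -0.012 over all probe sets. These comparisons share the vector arrays.

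**Figure D1:**
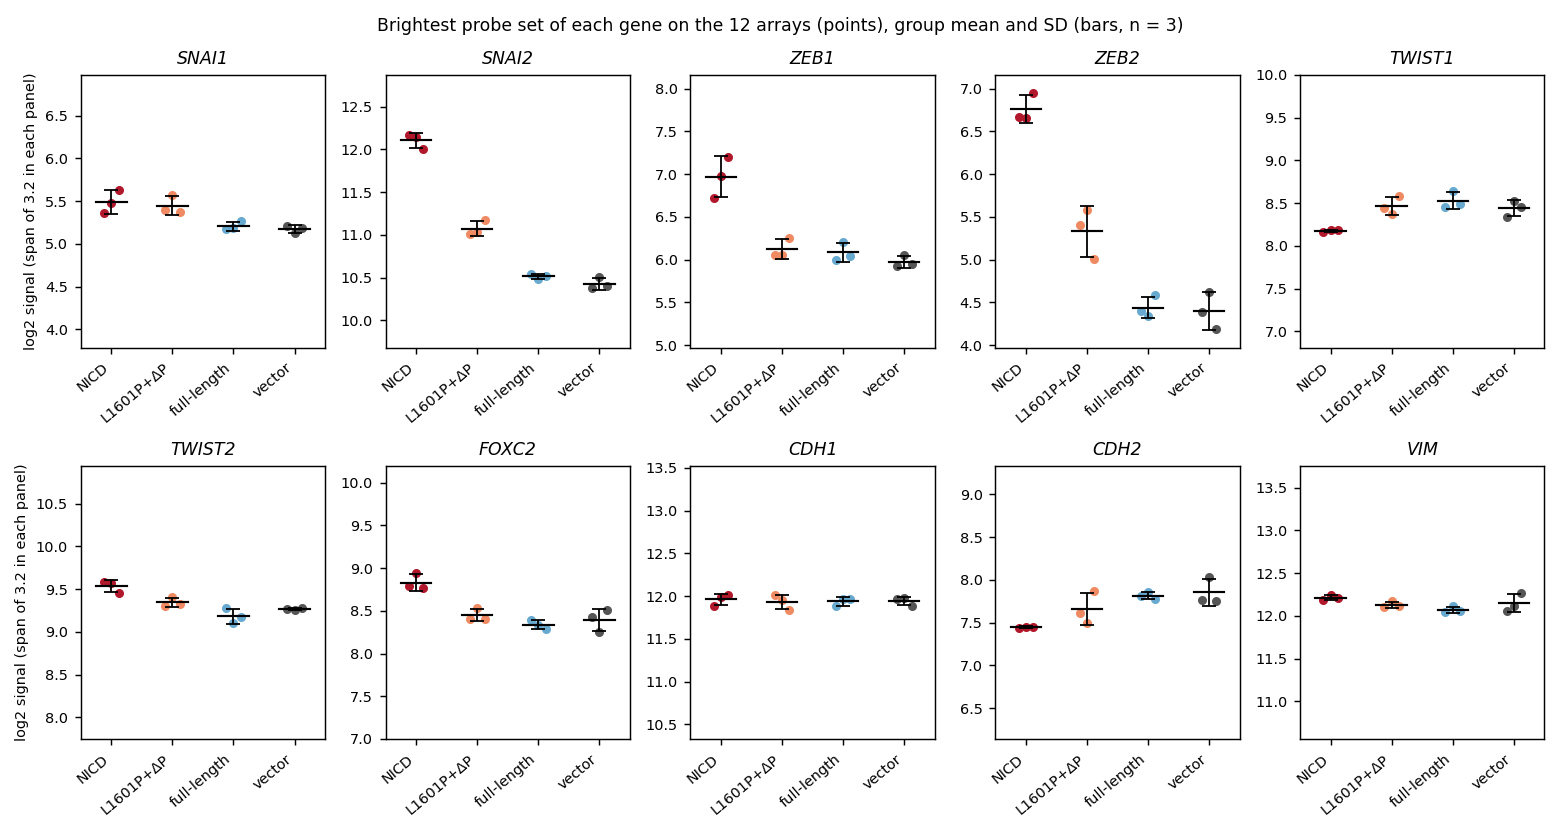
Log2 signal of the brightest probe set of each of the 10 genes on the 12 arrays, in 4 groups. Points are arrays, horizontal bars group means and whiskers the SD of 3 arrays, and every panel spans 3.2 log2 units. SNAI2 and ZEB2 are highest with NICD and second highest with Notch1 L1601P+ΔP, while CDH1 and VIM lie level across the groups.

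SNAI2, the zinc finger repressor SLUG, rose with both activated forms, in the order NICD, Notch1 L1601P+ΔP and then full-length Notch1 and vector. Its single probe set had log2 signals of 12.17, 12.14 and 12.003 with NICD, 11.01, 11.04 and 11.17 with Notch1 L1601P+ΔP, 10.54, 10.49 and 10.52 with full-length Notch1, and 10.38, 10.51 and 10.40 with vector. The NICD arrays stood above all others, the Notch1 L1601P+ΔP arrays stood above those with full-length Notch1 or vector, and the last groups overlapped. SNAI2 was 3.19-fold higher with NICD than with vector, a log2 difference of 1.67 ± 0.07 (standard error of the fit; adjusted p = 1.9e-09). With Notch1 L1601P+ΔP it was 1.56-fold higher than with vector (0.64 ± 0.07, adjusted p = 0.000203). The step between the activated forms was itself called, with NICD 2.05-fold above Notch1 L1601P+ΔP (1.03 ± 0.07, adjusted p = 4.02e-07). Full-length Notch1 differed from vector by 0.08, with a 95% interval from -0.06 to 0.23. Over its 13 alternatives the NICD difference of SNAI2 ranged from 1.641 to 1.764 and that of Notch1 L1601P+ΔP from 0.592 to 0.688, all called.

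SNAI1, the related repressor SNAIL, changed far less on this scale. Its signals were 5.36, 5.47 and 5.63 with NICD, 5.40, 5.57 and 5.37 with Notch1 L1601P+ΔP, 5.17, 5.18 and 5.27 with full-length Notch1, and 5.21, 5.13 and 5.18 with vector. All arrays of both activated forms lay above all arrays of the other groups, and the activated forms overlapped. NICD was 1.24-fold above vector (0.31 ± 0.08, adjusted p = 0.0135). The difference of 0.27 ± 0.08 with Notch1 L1601P+ΔP was not called (adjusted p = 0.107), and NICD and Notch1 L1601P+ΔP differed by 0.04, with a 95% interval from -0.13 to 0.21. The NICD call was lost without NICD replicate 3 (adjusted p = 0.0541) and without vector replicate 2 (adjusted p = 0.0522).

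ZEB2, a zinc finger and homeodomain repressor, had the largest rise of the 10 genes with NICD. On its brightest probe set, 228333_at, the signals were 6.67, 6.66 and 6.95 with NICD, 5.41, 5.58 and 5.01 with Notch1 L1601P+ΔP, 4.39, 4.34 and 4.58 with full-length Notch1, and 4.38, 4.62 and 4.18 with vector. The groups of activated forms did not overlap with each other or with the rest. NICD was 5.14-fold above vector (2.36 ± 0.15, adjusted p = 1.09e-07), Notch1 L1601P+ΔP 1.91-fold above vector (0.93 ± 0.15, adjusted p = 0.00418), and NICD 2.69-fold above Notch1 L1601P+ΔP (1.43 ± 0.15, adjusted p = 2.3e-05). Full-length Notch1 and vector differed by 0.04, with a 95% interval from -0.28 to 0.36. SNAI2 and this probe set of ZEB2 were the 2 members called in both steps, Notch1 L1601P+ΔP against vector and NICD against Notch1 L1601P+ΔP.

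The second ZEB2 probe set, 203603_s_at, gave a rise of similar size with NICD but a smaller step with the mutant receptor. It stood at 6.46, 6.47 and 6.44 with NICD, 4.45, 4.55 and 4.33 with Notch1 L1601P+ΔP, 3.97, 4.35 and 4.07 with full-length Notch1, and 3.87, 4.27 and 3.86 with vector. The NICD arrays stood more than 1 log2 unit above every other array. NICD was 5.49-fold above vector (2.46 ± 0.12, adjusted p = 8.74e-09). Notch1 L1601P+ΔP differed from vector by 0.44 ± 0.12 (adjusted p = 0.0772), which was called with a trended and robust prior (adjusted p = 0.0407), with the replicate number as a block (adjusted p = 0.0306) and without vector replicate 2 (0.579, adjusted p = 0.0177). Signals near 4 are dim on this scale, and folds against them may understate the change.

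The other ZEB2 probe sets changed less with NICD. On 235593_at Notch1 L1601P+ΔP differed from vector by 0.39 ± 0.16 and was not called (adjusted p = 0.24). On 235593_at NICD was higher than vector by 0.56 ± 0.16 (adjusted p = 0.0249), a call lost without vector replicate 3 (adjusted p = 0.112) and without NICD replicate 3 (adjusted p = 0.0874). Probe sets 233031_at and 233033_at differed by -0.01 and 0.11 and were not called. All 3 had means under 5 over the 12 arrays, as 7 of the 22 probe sets did.

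ZEB1, the close relative of ZEB2, was higher with NICD and not detectably changed with Notch1 L1601P+ΔP. On 212764_at its signals were 6.73, 6.98 and 7.20 with NICD, 6.06, 6.05 and 6.26 with Notch1 L1601P+ΔP, 5.9998, 6.21 and 6.04 with full-length Notch1, and 5.93, 6.06 and 5.94 with vector. Only the NICD arrays stood apart from the rest. NICD was 1.99-fold above vector (0.99 ± 0.11, adjusted p = 2.32e-05) and 1.80-fold above Notch1 L1601P+ΔP (0.85 ± 0.11, adjusted p = 0.000157). Notch1 L1601P+ΔP differed from vector by 0.15, with a 95% interval from -0.09 to 0.38. Probe set 210875_s_at rose by 0.87 ± 0.14 with NICD over vector (adjusted p = 0.000538). The remaining ZEB1 probe sets, 212758_s_at and 239952_at, differed by 0.29 (adjusted p = 0.112) and 0.22 (adjusted p = 0.235). Whether the probe sets of ZEB1 and ZEB2 read different transcript forms was not analysed here.

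**Figure D2:**
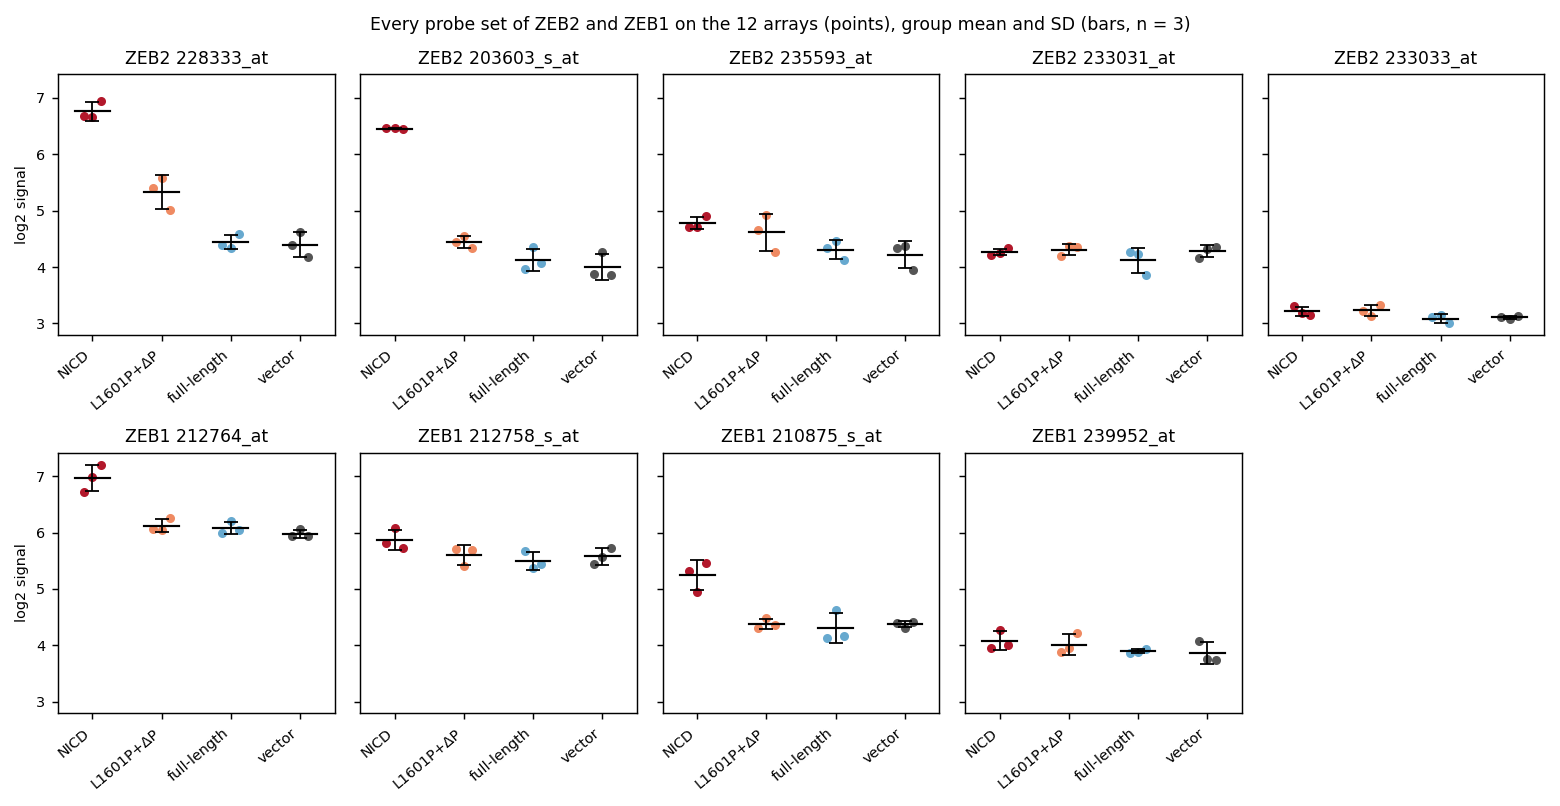
Log2 signal of the 5 ZEB2 probe sets (top) and the 4 ZEB1 probe sets (bottom) on the 12 arrays. Points are arrays, horizontal bars means and whiskers SDs of 3 arrays. ZEB2 228333_at and 203603_s_at stand above 6 with NICD and below 5 with vector, while 233031_at and 233033_at lie level near 4 and 3.

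The promoters of these genes are shown because ZEB1 and ZEB2 were the members with several called probe sets that rose with NICD, and because their proteins bind E-boxes. RefSeq promoter windows on GRCh38.p14, cut to the 250 bases before each annotated start, were used for 5 members: 7 windows for ZEB1, 2 for CDH2 and 1 each for ZEB2, TWIST2 and VIM. No window of SNAI1, SNAI2, TWIST1, FOXC2 or CDH1 was searched, so the counts below do not cover these genes. In the following sequences, given 5′ to 3′ on the gene's strand, capitals mark each CANNTG, the general E-box. The ZEB2 window is chr2:144520120-144520369 on the minus strand, and the ZEB1 window is chr10:31318167-31318416 on the plus strand, the most 5′ of its windows.
ZEB2: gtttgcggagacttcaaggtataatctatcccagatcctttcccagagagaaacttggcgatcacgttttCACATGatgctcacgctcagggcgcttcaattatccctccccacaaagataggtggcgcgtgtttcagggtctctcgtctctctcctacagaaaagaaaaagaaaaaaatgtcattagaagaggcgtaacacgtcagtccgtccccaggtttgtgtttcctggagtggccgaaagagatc
ZEB1: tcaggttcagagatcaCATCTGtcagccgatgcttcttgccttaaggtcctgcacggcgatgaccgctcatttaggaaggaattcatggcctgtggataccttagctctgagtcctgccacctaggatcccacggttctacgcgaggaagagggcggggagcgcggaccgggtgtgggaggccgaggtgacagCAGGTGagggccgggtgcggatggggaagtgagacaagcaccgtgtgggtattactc
The ZEB2 window held 1 E-box and no CACCTG, the E-box form bound by SNAIL and ZEB factors. The ZEB1 window held 2 E-boxes, and 1 of them read CAGGTG, which is CACCTG on the other strand, 57 bases before the start. Both strands were searched, and every CACCTG is also a CANNTG. Of the 12 member windows, 2 held CACCTG, both of ZEB1, 6 held CANNTG and 0 held GTGGGAA, a form of the site bound by RBPJ, the DNA-binding partner of NICD. Among 35116 RefSeq windows of this length 17.5% held CACCTG, 61.8% CANNTG and 5.43% GTGGGAA. A match is a description of the letters and no match says only that they are not in the window.

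TWIST1, a basic helix-loop-helix factor, and its relative TWIST2 differed in sign with NICD. TWIST1 had signals of 8.17, 8.18 and 8.19 with NICD, 8.44, 8.37 and 8.58 with Notch1 L1601P+ΔP, 8.46, 8.65 and 8.49 with full-length Notch1, and 8.34, 8.53 and 8.46 with vector. All NICD arrays lay below all other arrays, and the other groups overlapped. TWIST1 fell by 0.26 ± 0.08 on the log2 scale with NICD (adjusted p = 0.0252). The call was lost after cyclic loess (-0.172, adjusted p = 0.131), without vector replicate 2 (adjusted p = 0.0996) or 3 (adjusted p = 0.0722), and without NICD replicate 1 (adjusted p = 0.0721), 2 (adjusted p = 0.0529) or 3 (adjusted p = 0.0538). Against full-length Notch1, TWIST1 fell by 0.35 ± 0.08 with NICD (adjusted p = 0.00488).

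On the brighter TWIST2 probe set, 229404_at, the signals were 9.58, 9.57 and 9.46 with NICD, 9.30, 9.41 and 9.33 with Notch1 L1601P+ΔP, 9.28, 9.10 and 9.17 with full-length Notch1, and 9.26, 9.26 and 9.28 with vector. NICD lay above the other groups on every array and was 1.21-fold above vector (0.27 ± 0.06, adjusted p = 0.00884). The dimmer TWIST2 probe set differed by 0.08 (adjusted p = 0.652). FOXC2, a forkhead factor of mesenchyme and vessel development, had signals of 8.79, 8.94 and 8.76 with NICD on 239058_at, 8.40, 8.53 and 8.41 with Notch1 L1601P+ΔP, 8.39, 8.34 and 8.29 with full-length Notch1, and 8.43, 8.25 and 8.51 with vector. NICD was again the group apart, 1.35-fold above vector (0.44 ± 0.08, adjusted p = 0.00131) and 1.31-fold above Notch1 L1601P+ΔP (0.39 ± 0.08, adjusted p = 0.00484). The second FOXC2 probe set differed from vector by 0.09 with NICD (adjusted p = 0.657).

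CDH1, encoding E-cadherin, did not differ detectably between the groups on its brighter probe set. The signals of 201131_s_at were 11.88, 11.99 and 12.01 with NICD, 12.01, 11.95 and 11.84 with Notch1 L1601P+ΔP, 11.88, 11.97 and 11.97 with full-length Notch1, and 11.97, 11.98 and 11.89 with vector. All groups overlapped. NICD differed from vector by 0.02, with a 95% interval from -0.12 to 0.16, so a change of the size seen for ZEB2 or SNAI2 lies outside the interval. The dimmer CDH1 probe set, 201130_s_at, had signals of 8.63, 8.93 and 8.28 with NICD and 8.90, 8.82 and 8.84 with vector. Its NICD arrays spread more widely, and its difference of -0.24 ± 0.13 was not called (adjusted p = 0.232). Without NICD replicate 2 it was called lower (-0.398, adjusted p = 0.0191).

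CDH2, encoding N-cadherin, was lower with NICD on both probe sets. On 203440_at it had signals of 7.43, 7.45 and 7.45 with NICD, 7.61, 7.50 and 7.87 with Notch1 L1601P+ΔP, 7.81, 7.86 and 7.78 with full-length Notch1, and 7.77, 8.03 and 7.76 with vector. Every NICD array lay below every other array. CDH2 fell by 0.40 ± 0.10 on the log2 scale with NICD (a ratio to vector of 0.755, adjusted p = 0.00917), and the call held under all 13 alternatives, with values from -0.453 to -0.314. On 203441_s_at it fell by 0.26 ± 0.08 (adjusted p = 0.0473). This second call was lost under 8 of 12 alternatives, among them cyclic loess (adjusted p = 0.0895), the replicate block (adjusted p = 0.0784), and leaving out NICD replicate 2 (adjusted p = 0.0668) or 3 (adjusted p = 0.168) or vector replicate 1 (adjusted p = 0.0626), 2 (adjusted p = 0.0564) or 3 (adjusted p = 0.184). The difference with Notch1 L1601P+ΔP on 203440_at was -0.19, with a 95% interval from -0.40 to 0.02.

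VIM, encoding vimentin, was bright in all groups and differed little. The signals of 201426_s_at were 12.19, 12.24 and 12.21 with NICD, 12.11, 12.17 and 12.11 with Notch1 L1601P+ΔP, 12.05, 12.11 and 12.05 with full-length Notch1, and 12.06, 12.12 and 12.26 with vector. All NICD arrays lay within the vector range. NICD differed from vector by 0.06, with a 95% interval from -0.07 to 0.20 (adjusted p = 0.565). The other VIM probe set had a mean under 5 and was not called in any of the 6 comparisons.

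**Figure D3:**
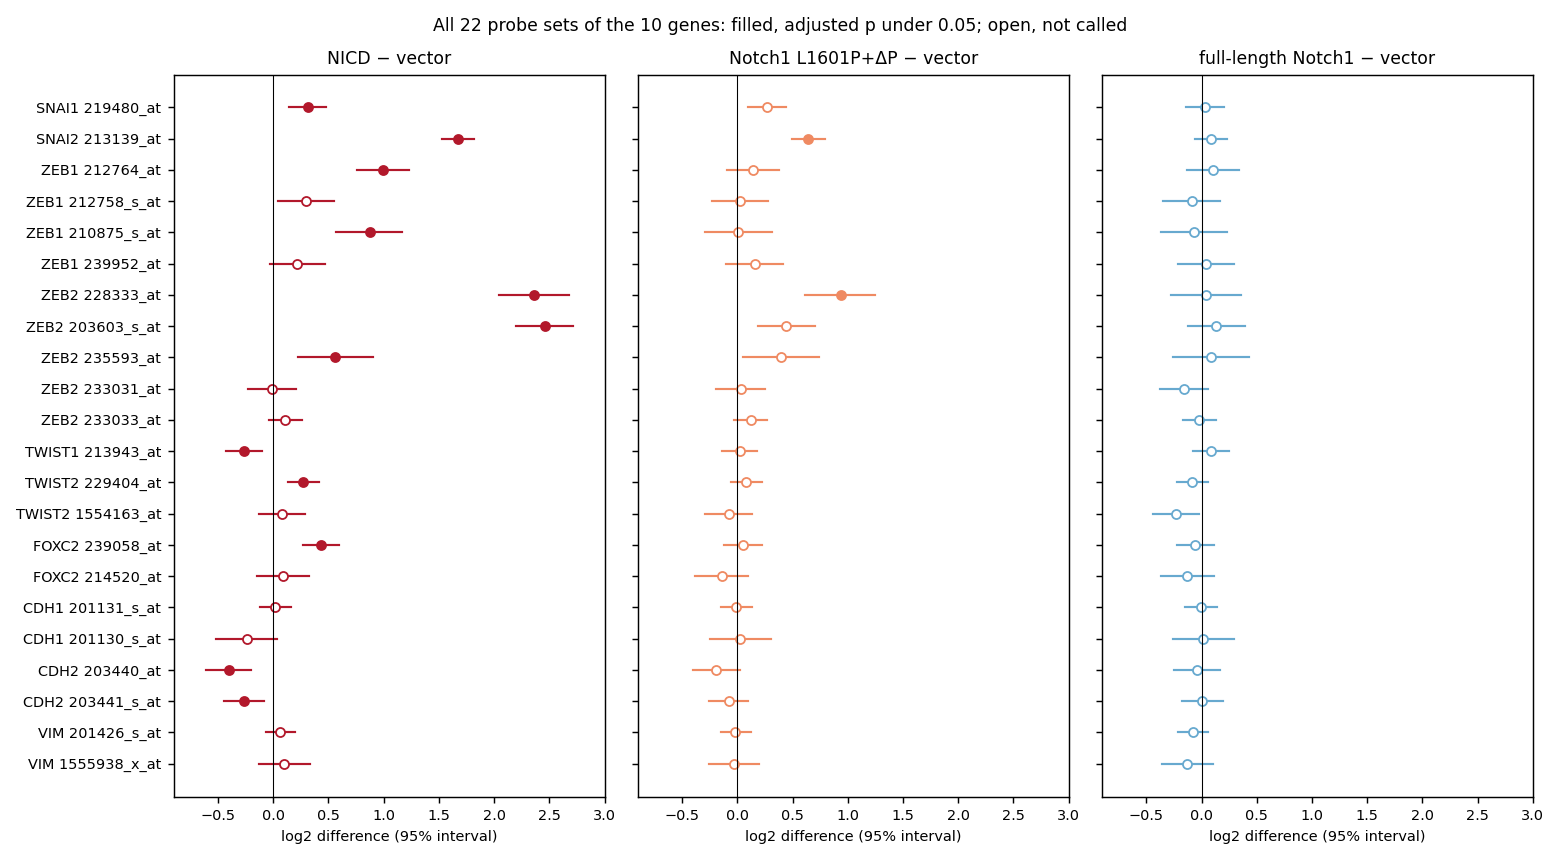
Log2 differences from vector for all 22 probe sets with NICD (left), Notch1 L1601P+ΔP (middle) and full-length Notch1 (right). Points are differences of group means, lines 95% intervals of the fit, and filled points have an adjusted p under 0.05. With NICD 12 points are filled, with Notch1 L1601P+ΔP 2 and with full-length Notch1 0. Of all probe sets, 19.3%, 2.39% and 0.011% were called in the same order.

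NICD was also compared with the other Notch1 forms. The form cannot be told apart here from what gfp stands for or from the share of cells infected. Between NICD and Notch1 L1601P+ΔP 6 of the 22 probe sets were higher and 1 lower, against backgrounds of 6.04% and 7.01%, 13% in all, and the arrays of 14 did not overlap, against 29.1%. The higher ones were those of SNAI2, 2 of ZEB1, 2 of ZEB2 and 1 of FOXC2, and the lower one was TWIST1 (-0.29 ± 0.08, adjusted p = 0.0242). The TWIST1 call was lost without any 1 NICD array (adjusted p = 0.0515 to 0.0691) and without Notch1 L1601P+ΔP replicate 1 (adjusted p = 0.0577) or 3 (adjusted p = 0.0946), and with these groups alone (adjusted p = 0.0502). TWIST2 229404_at was higher by 0.19 (adjusted p = 0.0696), which became a call under 5 alternatives, among them cyclic loess (0.227, adjusted p = 0.0321) and leaving out NICD replicate 3 (0.234, adjusted p = 0.0497). CDH1 201130_s_at was called lower without NICD replicate 2 (-0.419, adjusted p = 0.021).

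Between NICD and full-length Notch1 10 probe sets were higher and 3 lower, against backgrounds of 7.14% and 11.1%, 18.2% in all, and the arrays of 18 did not overlap, against 32.7%. They belonged to the genes called against vector, with ZEB1 212758_s_at (0.38 ± 0.12, adjusted p = 0.0424) and TWIST2 1554163_at (0.31 ± 0.10, adjusted p = 0.0438) added and ZEB2 235593_at (0.47, adjusted p = 0.0585) not called. That probe set was called with a trended and robust prior (adjusted p = 0.0256), the replicate block (0.0313) and the arrays of these groups alone (0.0172). The call of TWIST2 1554163_at was lost without any 1 of the 6 arrays other than full-length replicate 2 (adjusted p = 0.0653 to 0.168). ZEB1 212758_s_at lost its call without full-length replicate 2 or 3 or NICD replicate 1 or 2 (0.0688 to 0.145), and also after cyclic loess (0.0537), with centred array medians (0.0631), with these groups alone (0.0666) and with the replicate block (0.0715). TWIST2 1554163_at also lost it after cyclic loess (0.0528), with centred array medians (0.0717) and with these groups alone (0.0673). For SNAI1 the call was lost without full-length replicate 1 or 2 or NICD replicate 3 (0.0755 to 0.101), with a trended and robust prior (0.0525) and with these groups alone (0.0664). CDH2 lost its call on 203441_s_at without any full-length array or NICD replicate 2 or 3 (0.0629 to 0.166), after cyclic loess (0.0611), with these groups alone (0.104) and with the replicate block (0.0763). Its call was lost on 203440_at without full-length replicate 2 (0.0598) or NICD replicate 1 (0.052). CDH1 201130_s_at was called lower without NICD replicate 2 (-0.415, adjusted p = 0.0156). VIM 201426_s_at was higher by 0.14, with a 95% interval from 0.01 to 0.28 (adjusted p = 0.152), and was called after cyclic loess (0.237, adjusted p = 0.0239) and with a trended and robust prior (0.142, adjusted p = 0.0179). Between Notch1 L1601P+ΔP and full-length Notch1 the called members were SNAI2 (0.56 ± 0.07, adjusted p = 0.000891) and ZEB2 228333_at (0.89 ± 0.15, adjusted p = 0.00764), both higher, against backgrounds of 0.925% higher and 0.709% lower, 1.63% in all. There the arrays of 6 probe sets did not overlap, against 22.5%.

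The genes around the members were read from lists, with 1 probe set per gene, the brightest by its mean over all 12 arrays. These lists were chosen with earlier results of these data known, so the list counts here and below are a description. A list of 32 genes stood for an epithelial programme opposed to SNAIL and ZEB factors, whose action on these genes was not tested. Of the 32, 2 were higher and 18 lower with NICD than with vector, with a median of -0.268 against -0.022 over all genes. The background over 19775 genes was 24.2%, of which 8.46% higher and 15.8% lower, and after cyclic loess the list had 4 higher and 16 lower. ESRP1, a splicing factor of epithelial cells, fell by 1.17 ± 0.06 (adjusted p = 1.4e-08), the lipid enzyme gene CDS1 by 0.95 ± 0.07, the ETS factor EHF by 0.92 ± 0.07 and the adhesion molecule EPCAM by 0.74 ± 0.07. The tight junction gene CLDN1 rose by 0.53 ± 0.06 (adjusted p = 2.65e-05) and the factor GRHL1 by 0.42 ± 0.09. With Notch1 L1601P+ΔP 1 was higher and 2 lower, against 1.64% and 1.75% of all genes, 3.4% together. CLDN1 rose by 0.44 ± 0.06, ESRP1 fell by 0.33 ± 0.06 and EPCAM by 0.31 ± 0.07. That count of 3 was 1 without vector replicate 3 or without Notch1 L1601P+ΔP replicate 1 or 2, and 6 without Notch1 L1601P+ΔP replicate 3.

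Genes that work with the cadherins moved in both directions with NICD. Of 6 catenins and related genes, CTNNB1, encoding beta-catenin, rose by 0.38 ± 0.06 (adjusted p = 0.000445) and JUP, encoding plakoglobin, by 0.28 ± 0.08. CTNNAL1, an alpha-catenin relative, fell by 1.73 ± 0.07 (adjusted p = 2.12e-09), and CTNNA1, encoding alpha-catenin, fell by 0.26 ± 0.05. Of 10 other cadherins, CDH16, the kidney cadherin, was the one called, at 8.73 ± 0.16 with NICD and 7.22 ± 0.14 with vector (1.51 ± 0.11, adjusted p = 3.19e-07). CDH16 rose by 0.80 ± 0.11 and CTNNAL1 fell by 0.49 ± 0.07 with Notch1 L1601P+ΔP. After cyclic loess 2 of the 10 cadherins were higher with NICD. Of all genes, 8.46% were higher and 15.8% lower with NICD, and 1.64% and 1.75% with Notch1 L1601P+ΔP. CDH3, encoding the P-cadherin of basal cells, stood at 11.62 with NICD and 11.48 with vector (adjusted p = 0.21). CDH11, a mesenchymal cadherin, stood at 4.88 with NICD and 4.98 with vector (adjusted p = 0.725).

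Of 17 genes for intermediate filaments and their partners, 6 were higher and 4 lower with NICD, against 8.46% and 15.8% of all genes. SYNM, encoding synemin, which assembles with vimentin, rose by 1.24 ± 0.09 (adjusted p = 5.53e-07), and the keratins KRT16, KRT5 and KRT14 by 1.19 ± 0.09, 0.58 ± 0.06 and 0.57 ± 0.07. KRT15 fell by 2.54 ± 0.06, the linker gene PLEC by 1.17 ± 0.09, the nuclear lamin LMNB1 by 0.63 ± 0.17 and KRT18 by 0.24 ± 0.05. There were 3 higher and 2 lower with Notch1 L1601P+ΔP, against 1.64% and 1.75% of all genes. KRT16 rose by 0.77 ± 0.09, KRT14 by 0.58 ± 0.07 and KRT5 by 0.35 ± 0.06, while PLEC fell by 0.38 ± 0.09 and KRT15 by 0.36 ± 0.06.

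Of 29 mesenchymal matrix and contractile genes, 10 were higher and 2 lower with NICD, against 8.46% and 15.8% of all genes. The other 17 were not called, and the list median was 0.104, against -0.022 over all genes. POSTN, encoding the matrix protein periostin, stood at 8.21 with NICD and 3.83 with vector (4.38 ± 0.10, adjusted p = 1.21e-11). FBN1, encoding fibrillin, rose by 3.40 ± 0.10, the matrix gene SPARC by 2.45 ± 0.08 and S100A4 by 1.28 ± 0.09. NT5E, the ectoenzyme CD73, fell by 1.18 ± 0.06 and the collagen cross-linking enzyme LOX by 0.71 ± 0.06. With Notch1 L1601P+ΔP 4 were higher and 1 lower, against 1.64% and 1.75% of all genes. POSTN rose by 2.07 ± 0.10, FBN1 by 0.87 ± 0.10, S100A4 by 0.65 ± 0.09 and the integrin ITGA5 by 0.50 ± 0.08. NT5E fell by 0.61 ± 0.06. Among the 14 markers of other cell types given above, 3 were higher and 11 not called with NICD, and 1, CD14, was higher and 13 not called with Notch1 L1601P+ΔP.

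Other factors and signals tied to EMT did not follow SNAI2 and ZEB2 as a group. Of 9 further EMT-associated factors, 1 was higher and 4 lower with NICD, against 8.46% and 15.8% of all genes. SOX9, which acts with SLUG in mammary stem cells, rose by 1.38 ± 0.07 (adjusted p = 1.21e-08). The forkhead factor FOXQ1 fell by 2.65 ± 0.07, the chromatin protein HMGA2 fell by 1.70 ± 0.06, KLF8 fell by 0.67 ± 0.15 and TCF3 fell by 0.35 ± 0.06. SOX9 rose by 0.63 ± 0.07 with Notch1 L1601P+ΔP, and FOXQ1 and HMGA2 fell by 0.62 ± 0.07 and 0.54 ± 0.06. Of all genes, 1.64% were higher and 1.75% lower with Notch1 L1601P+ΔP. Of 23 genes for inducers, their receptors and SNAIL turnover, 5 were higher and 9 lower with NICD, against 8.46% and 15.8% of all genes. The signal transducer SMAD3 rose by 1.14 ± 0.07, the ligand WNT5A by 0.43 ± 0.07, the receptor TGFBR1 by 0.37 ± 0.06 and the ligand TGFB3 by 0.36 ± 0.11. No further probe set of TGFBR1, TGFB3 or KLF8 was called. The receptor tyrosine kinases AXL and MET fell by 2.26 ± 0.08 and 1.73 ± 0.07, the co-receptor TGFBR3 by 1.36 ± 0.07 and the ligand TGFB2 by 0.85 ± 0.10. A second AXL probe set differed by only -0.241, and the 3 other MET probe sets by -1.795 to -1.424. With Notch1 L1601P+ΔP SMAD3 and WNT5A rose by 0.57 ± 0.07 and 0.40 ± 0.07, and AXL, MET, TGFBR3 and TGFB2 fell by 0.78 ± 0.08, 0.57 ± 0.07, 0.45 ± 0.07 and 0.44 ± 0.10. With full-length Notch1 0 genes of any of these lists were called by limma, where 0.0202% of all genes were, 0.0152% higher and 0.00506% lower.

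**Figure D4:**
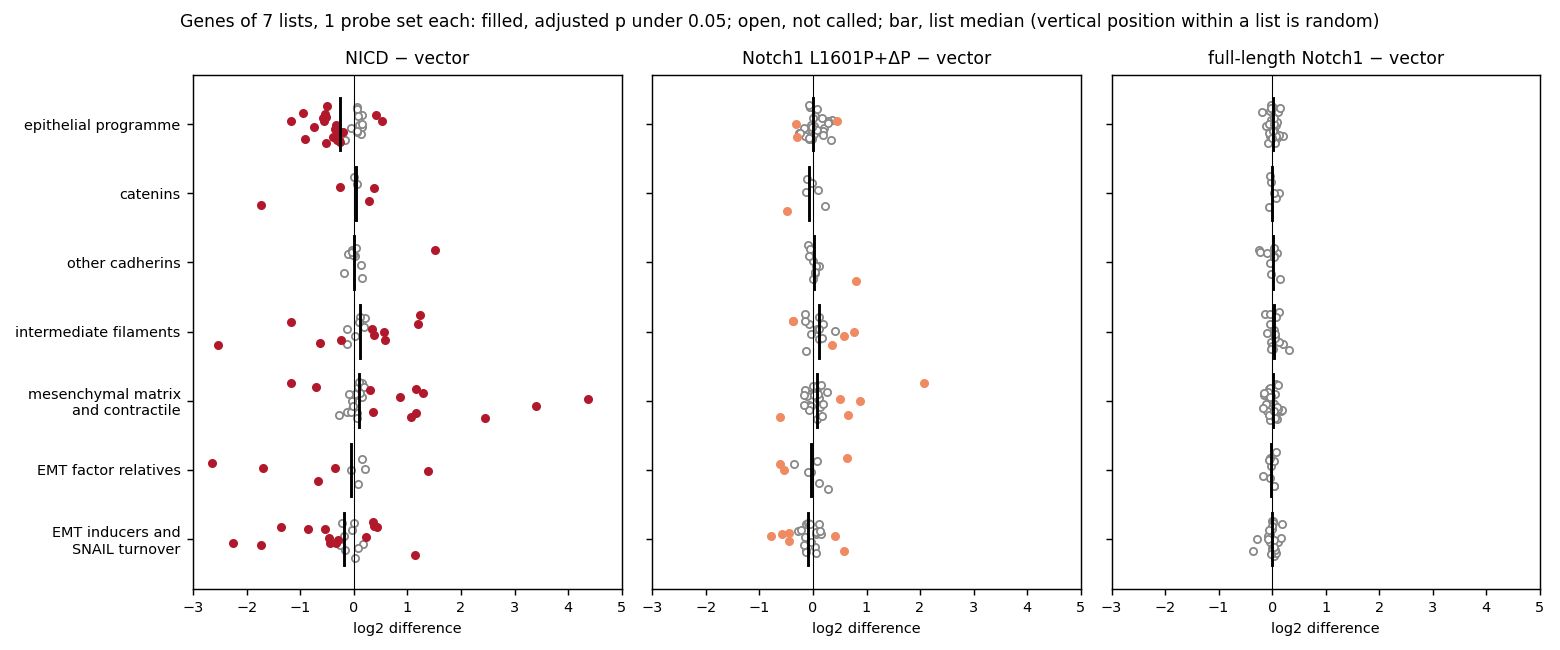
Log2 differences from vector of the genes in 7 lists, 1 probe set per gene, with NICD (left), Notch1 L1601P+ΔP (middle) and full-length Notch1 (right). Each point is a gene, filled where the adjusted p was under 0.05, vertical bars are list medians, and the height of a point within its row is random. With NICD the epithelial programme lies mostly left of 0, with a median of -0.268, and POSTN and FBN1 lie far to the right.

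Genes whose levels ran most like those of the members over the 12 arrays are named as a description. Among 14525 genes with a mean of at least 5, those with the highest Pearson r to SNAI2 were SULF2, PDP1 and ADGRG2, with r from 0.996 to 0.997. For ZEB2 they were SEPTIN11 (0.992), RRAD (0.990) and ELL3 (0.989). RRAD stood at 10.51 with NICD and 5.70 with vector, and SEPTIN11 at 10.80 and 10.15. For FOXC2 they were PHC2 (0.984), SYNM (0.970) and SNN (0.961), for ZEB1 CBS, HAPLN3 and GCC2 (0.971 to 0.974), for SNAI1 GREB1L, A2ML1 and VIL1 (0.911 to 0.947) and for TWIST2 USP11, MT1X and SHC4 (0.944 to 0.948). For the lower members they were RNASEH2B, PITPNM3 and NCEH1 with TWIST1 (0.941 to 0.956) and CWC27, RPL24 and TFAM with CDH2 (0.962 to 0.973). The 12 points are 4 groups of 3 arrays normalized together, so r mostly follows the group means.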

How the data were processed

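Messenger RNA of 12 MCF-10A samples was read on Affymetrix arrays with 54675 probe sets. The authors deposited log2 signals made with RMA, and limma was also used, per the submitters' processing notes, with versions not given in the sources used here. RMA corrects background, applies quantile normalization and sums up probes by probe set. Quantile normalization hides a shift of most genes one way, and the summary compresses dim signals. Scanner files were not used here.

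From these values, 62 control probe sets were left out and the other 54613 were fitted in limma 3.58.1 (R 4.3.3) with 1 mean per group and no covariate, over the 12 arrays together, with 8 residual and 4.30 prior degrees of freedom. Calls used a two-sided Benjamini-Hochberg adjusted p under 0.05 over all probe sets of a comparison, in 6 comparisons. Intervals are 95% intervals of the fit. Gene symbols came from the platform annotation: 41091 probe sets had 1 symbol, 1801 several and 11721 none, and 41037 of the first matched a RefSeq gene number. Of 153 genes in 9 lists, 139 were tested and 14 were not analysed here. All members were named, as were NOTCH1, up to 4 called genes per list and direction against vector, and the 3 genes most like each member called with NICD. The members and lists were chosen with earlier results of these data known. Genes outside this rule (CDH3, CDH11, LUM, CDH5, PTPRC, DCN and the markers) were named as checks. The fit was tested on simulated data. Groups came from the sample titles. Alternatives changed the probe sets tested, the scaling, the variance moderation, the arrays in the fit and the replicate block, and left out each array in turn.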

Additional observations from a re-analysis of the deposited data

How the results depend on the processing

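The total number of member probe sets called stayed within 1.5 times of the reported one in all 6 comparisons under the alternatives run, except that NICD against full-length Notch1 had 8 calls in place of 13 with 1 probe set per gene, where only 10 probe sets of the members are tested. With NICD against vector the calls ranged from 8 to 11 when single arrays were left out, lowest without NICD replicate 3, where the 3 lower calls were 1, and with Notch1 L1601P+ΔP against vector from 2 to 3. Over all probe sets the calls then ranged from 8461 to 10334 with NICD and from 711 to 1033 with Notch1 L1601P+ΔP. The 1 lower call of NICD against Notch1 L1601P+ΔP was 0 with these groups alone and without NICD replicate 1 or 3 or Notch1 L1601P+ΔP replicate 1 or 3. Without NICD replicate 2 the lower call was CDH1 201130_s_at in place of TWIST1. The 3 lower calls of NICD against full-length Notch1 were 1 without full-length replicate 2. Of 1602 values of single probe sets recomputed, 0 called values changed sign, 55 lost a call and 16 gained one. In NICD against vector some calls held in all alternatives that tested the probe set. They were those of SNAI2, ZEB1 212764_at and 210875_s_at, ZEB2 228333_at and 203603_s_at, TWIST2 229404_at, FOXC2 239058_at and CDH2 203440_at. The causes of the lost calls were not tested.

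With the replicate number as a block, 11 member probe sets were called in NICD against vector, 3 in Notch1 L1601P+ΔP against vector, 0 in full-length Notch1 against vector, 7 in NICD against Notch1 L1601P+ΔP, 12 in NICD against full-length Notch1 and 2 in Notch1 L1601P+ΔP against full-length Notch1. Over all 54613 probe sets the calls with the block were 9775, 968, 6, 6248, 9068 and 604 in the same order. Without the block they were 10565, 1307, 6, 7124, 9958 and 892. The labels number the replicates in every group without saying that a number marks a shared culture or day. Deviations of same-numbered arrays correlated between -0.202 and 0.237, above 0.1 in 2 of 18 pairs, so the arrays were not treated as paired by number. For differently numbered arrays the range was -0.237 to 0.219, above 0.1 in 9 of 36 pairs. What those arrays share is not given in the labels, and the replicate block does not cover it. Among list counts, the epithelial programme with Notch1 L1601P+ΔP had from 1 to 6 calls against 3. The genes called in lists had another probe set called the same way for 39 of 48 genes with further probe sets in NICD against vector, and 0 had one called the opposite way. The other 9 were KLF8, TGFB3, TGFBR1, SMAD4, CSNK1E, MARVELD3, COL5A2, ACTA2 and TNC. In Notch1 L1601P+ΔP against vector it was 10 of 15 genes, and 0 had one called the opposite way. There the other 5, with no further probe set called, were TGFB2, WNT5A, AXL, ESRP1 and PLEC. Calls over all probe sets in NICD against vector were 10565, and 5460 with 1 probe set per gene, where fewer are tested. In Notch1 L1601P+ΔP against vector they were 1307, with 2318 under a trended and robust prior and down to 711 without single arrays; in full-length Notch1 against vector they were 6, with 29 under that prior.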
